A study of Mus musculus with 4 samples.

Results

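The sodium pump of heart muscle needs a beta subunit to fold and reach the cell surface, and 6 genes around it were followed in ventricles of HDAC2-deficient mouse embryos: the beta subunit family Atp1b1, Atp1b2, Atp1b3 and Atp1b4, the pump regulator Fxyd1, and the sodium-calcium exchanger gene Slc8a1. They are 6 of the 18193 genes named singly by a probe set of the array, and they were taken at all 14 probe sets that name one of them only. The group was chosen by the signals and detection calls of Atp1b4, which are far lower without HDAC2, so the values of that gene are given as a description, with no test. Its other members are the relatives and partners of the pump.

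The data are 4 Affymetrix MOE430v2 arrays of heart ventricle RNA at embryonic day 17.5, from mice of mixed C57BL/6 and SV129 background. The 2 KO arrays each carried RNA pooled from 3 embryos deficient in HDAC2, a histone deacetylase that works in corepressor complexes, and the 2 WT arrays each carried RNA pooled from 2 wild-type littermates. The sources used here do not say how the allele was made or whether it acts in all cells, what sex the embryos were, or whether pools shared embryos, so the p-values below reflect how far these 4 pools scatter and no more, and part of that scatter may be technical. The source field of the KO samples also reads wild type, but Hdac2, read at 1445684_s_at, gave signals of 31.4 and 21.0 on the KO arrays, with no Present call, against 1189 and 1421 on the WT arrays.

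The sodium pump is an ATPase that moves sodium out of the cell and potassium in, and so holds the gradient on which excitation of the heart depends. Its catalytic alpha subunit works with a glycosylated beta subunit, and small FXYD proteins tune its affinity and rate. The sodium-calcium exchanger uses the same sodium gradient to carry calcium out of the cardiomyocyte after each beat, so pump and exchanger act together on contraction. In placental mammals the product of Atp1b4 has left this task: it is known as a protein of the inner nuclear membrane of muscle cells around birth, where it binds the transcriptional co-regulator SKIP, encoded by Snw1.

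The 250 bases before the annotated start of Atp1b4 and of Atp1b1 are shown because Atp1b4 is the beta subunit gene that was not detected in KO, and Atp1b1 the tested one whose KO signals lay closest to WT. Both are from RefSeq (GRCm38.p6), 5' to 3' on the strand of the gene, with CpG dinucleotides in capitals.
Atp1b4, chrX:38315872-38316121, plus strand: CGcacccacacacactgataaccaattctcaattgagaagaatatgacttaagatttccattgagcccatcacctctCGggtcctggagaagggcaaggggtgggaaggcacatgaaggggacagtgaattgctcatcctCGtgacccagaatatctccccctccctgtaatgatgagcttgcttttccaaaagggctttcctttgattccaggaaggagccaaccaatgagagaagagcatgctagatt
Atp1b1, chr1:164458356-164458605, minus strand: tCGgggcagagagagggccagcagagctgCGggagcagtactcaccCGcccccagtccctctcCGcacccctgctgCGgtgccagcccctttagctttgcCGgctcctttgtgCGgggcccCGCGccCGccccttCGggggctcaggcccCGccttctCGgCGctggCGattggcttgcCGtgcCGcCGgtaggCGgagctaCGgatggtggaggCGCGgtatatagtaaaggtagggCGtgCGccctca
The Atp1b4 stretch held 3 CpG dinucleotides and the Atp1b1 stretch held 24. Of 32851 such windows in the mouse table, 37.8% held no more CpG than that of Atp1b4 and 89.3% no more than that of Atp1b1, around a median of 6. Windows were found for 5 of the 6 genes. Atp1b3, with 2 annotated starts, was CpG-rich at both, with 24 and 35, while Slc8a1 held 8 and Fxyd1 held 3. On either strand, the E-box letters CANNTG, which muscle transcription factors can bind, occurred 2 times before Atp1b4, 1 time before Slc8a1, 1 time before each start of Atp1b3, and not in the windows of Atp1b1 and Fxyd1. Those letters are in 66.2% of all windows, so their presence sets no gene apart. The CCAAT letters, which can share bases with an E-box, occurred 2 times before Atp1b4 and 1 time before Atp1b1, against 33.8% of all windows with at least 1. The letters TATAAA of the TATA box and CATTCC of the MCAT element of muscle genes were in none of the 6 windows, against 12.4% and 12.6% of all windows.

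Atp1b4, the muscle-restricted member, was detected in WT ventricles and not in KO ventricles. Its single probe set, 1422908_at, gave signals of 19.1 and 5.4 on the KO arrays, against 465.7 and 480.8 on the WT arrays. Both WT arrays called it Present, and neither KO array did. Between the means of log2 signals, Atp1b4 was therefore at least 44.2-fold lower in KO, with each KO array entered at its signal or, where that was lower, at the dimmest signal called Present on it. The KO arrays decide how large this bound is: it was 24.8-fold without KO replicate 2 and 78.9-fold without KO replicate 1, and the groups did not overlap in either case. The detection p-values deposited by the authors were 0.1497 and 0.432 on the KO arrays and 0.000244 on each WT array. In the authors' deposited signal log ratio, which sets each array against a baseline array not named in the sources used here, Atp1b4 stood at 0.70 and -1.10 on the KO arrays and at 5.30 on both WT arrays.

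**Figure D1:**
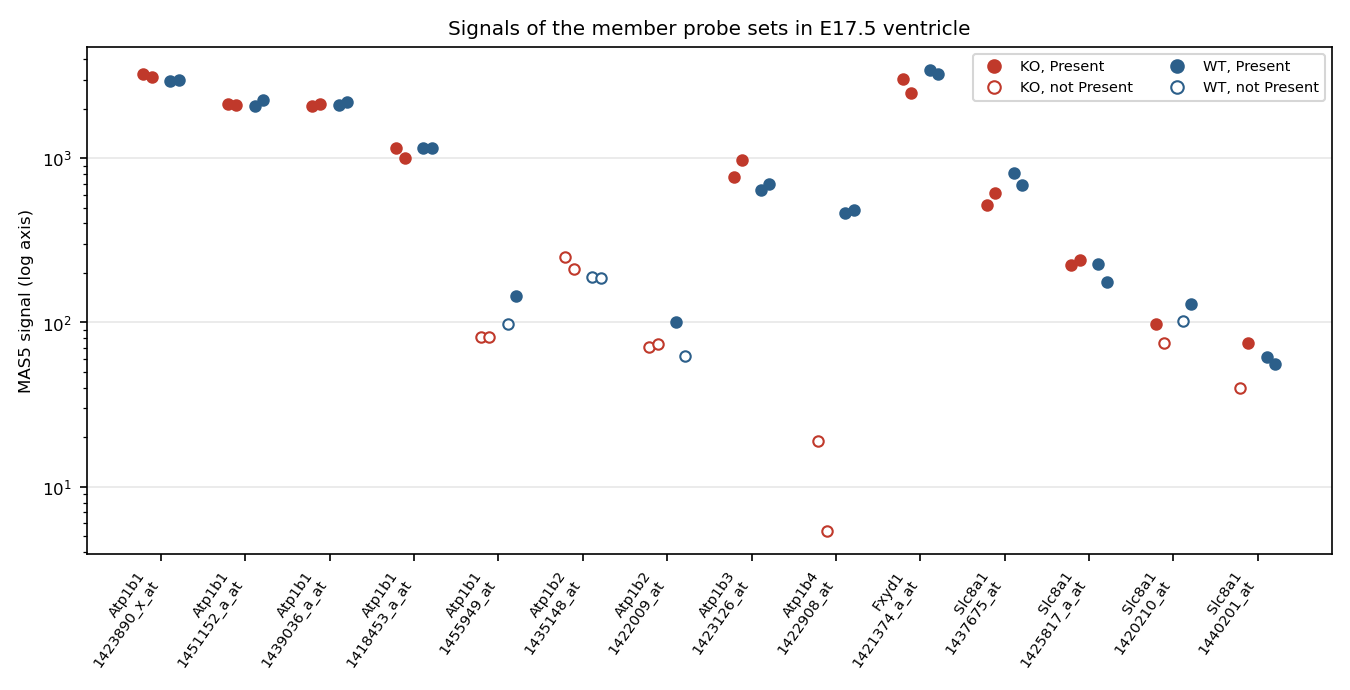
MAS5 signal (log axis) of all 14 probe sets of the 6 genes on each array, KO in red to the left of WT in blue, with open circles for arrays where the probe set was not called Present. Atp1b4 has its KO points at 19.1 and 5.4 and its WT points at 465.7 and 480.8, and the other probe sets keep their groups close together.

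The genes whose pattern over the 4 arrays lay nearest to that of Atp1b4 included fast skeletal muscle genes and Hdac2 itself. The measure was the Euclidean distance between log2 signals, each probe set centred on its WT mean and undetected signals raised to the lowest Present signal of their array, over 34944 other probe sets that name 1 gene. The nearest 5 were Hdac2 at 1445684_s_at (distance 0.83 on the log2 scale), the fast regulatory myosin light chain Mylpf (0.96), fast troponin T, Tnnt3 (1.28), the bone matrix gene Ibsp (1.31) and Hdac2 at 1449080_at (1.52). Mylpf gave signals of 80.4 and 62.5 in KO, with no Present call, against 2972 and 2654 in WT. Tnnt3 gave signals of 21.6 and 21.7 in KO, with no Present call, against 1153 and 1269 in WT. All 4 arrays took part in the choice, so these values describe the likeness and carry no test.

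Markers of fast and embryonic skeletal muscle moved with Atp1b4. Of the 13 listed genes, all 13 were tested and Present on both WT arrays and 5 on both KO arrays, 10 passed the adjusted threshold of 0.05 in limma, all of them lower in KO, where 0.815% of all genes were called lower at their brightest tested probe set. Of these 10, Tnni2, Myl1, Myh8 and Klhl41 were Present on both arrays of both groups, and the other 6 passed the detection filter through WT alone, the group where they are high, so the count is a description. Myl1, an embryonic and fast myosin light chain, gave signals of 419.0 and 376.6 in KO, against 3082 and 2945 in WT. Its log2 difference was -2.92 ± 0.11, where ± gives the standard error from limma, here and below. Without Ckm, whose creatine kinase the heart makes too, their summed signal was 1268 and 1265 on the KO arrays, against 13312 and 12383 on the WT arrays. No marker of the list was at 0. Of 3 slow skeletal muscle markers, the troponin gene Tnnt1 fell (-0.88 ± 0.13, adjusted p = 0.00355 in limma). Tnni1 (0.0096 ± 0.080) and Myh7b (-0.045 ± 0.17) did not pass (adjusted p = 0.968 and 0.927 in limma). Tnni1 had mean signals of 11815 in KO and 11741 in WT, beside 11298 and 11928 for the cardiomyocyte marker Myh6. Which tissue gave the Tnni1 and Myh7b signals was not tested. All 5 myogenic factors of the list (Myod1, Myog, Myf5, Myf6 and Pax7) were without a Present call on every array. The 12 cardiomyocyte markers were all Present on all 4 arrays, and 0 passed in limma. Of the 12, 1 had an unadjusted p under 0.05, Nkx2-5 (-0.30 ± 0.13), where 15.5% of all probe sets tested had one. The median difference of the 12 was -0.016, with summed signals of 122093 and 127145 on the KO arrays and 127820 and 124479 on the WT arrays. The collagen genes Col1a1 (-0.73 ± 0.10, adjusted p = 0.002 in limma) and Col1a2 (-0.55 ± 0.097, adjusted p = 0.0118 in limma) fell among 5 fibroblast markers, while Col3a1 (-0.15), Dcn (-0.12) and Pdgfra (0.52, the other way) did not pass, for a list median of -0.15. Fewer cells of a type and less RNA per cell cannot be told apart in these bulk samples, and the part of skeletal muscle RNA in the Atp1b4 difference was not tested.

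**Figure D2:**
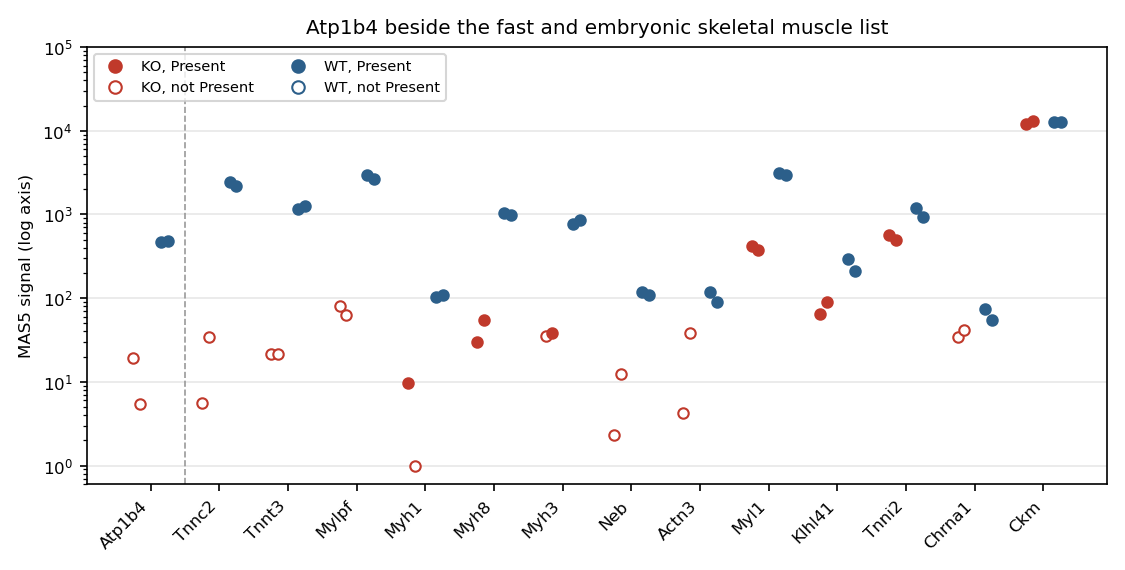
MAS5 signal (log axis) of Atp1b4, left of the dashed line, and of the 13 listed skeletal muscle genes at their brightest tested probe set, ordered by their difference, KO in red to the left of WT in blue, open where not Present. Tnnc2 and Tnnt3 lie farther apart between the groups than Atp1b4, and Ckm lies level.

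Atp1b4 lies on the X chromosome, and the sex-linked transcripts differed between the pools too. Xist, the RNA of the inactive X chromosome, gave signals of 547.9 and 793.7 in KO and 80.5 and 90.1 in WT at 1436936_s_at (adjusted p = 8.1e-07 in limma). At 1427262_at, Xist gave signals of 413.7 and 797.1 in KO, against 1.3 and 6.1 in WT, where it was Absent on both arrays, at least 108-fold higher in KO. The Y-linked translation factor gene Eif2s3y gave signals of 240.2 and 126.1 in KO and 431.3 and 449.1 in WT (-1.34 ± 0.23, adjusted p = 0.0105 in limma). Y-linked Uty passed at 1426598_at (-1.29 ± 0.23, adjusted p = 0.0138 in limma). It did not pass at 1422247_a_at (-0.94 ± 0.36) or 1457582_at (-1.15 ± 0.57), with adjusted p = 0.242 and 0.355 in limma. Y-linked Kdm5d at 1424903_at did not pass either (-1.23 ± 0.32, adjusted p = 0.0883 in limma). Over the 578 tested probe sets of X-chromosome genes other than Atp1b4, the median log2 difference was 0.065. Of these, 9, or 1.56%, were called, against 1.34% of all probe sets tested, and 5, or 0.865%, were called lower, against 0.96% of all. Xist was not removed from the 578. Whether the makeup of the pools by sex has a part in the Atp1b4 difference was not tested.

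Atp1b1, the main beta subunit of the heart pump, had almost equal signals in KO and WT ventricles at its 4 bright probe sets. It is measured by 5 probe sets, 4 of them Present on all 4 arrays. The brightest, 1423890_x_at, gave signals of 3229 and 3104 in KO and 2932 and 2990 in WT, a log2 difference of 0.10 ± 0.093 in which the groups did not overlap. At 1451152_a_at the signals were 2130 and 2102 in KO and 2087 and 2247 in WT (-0.033 ± 0.099), with overlapping groups. At 1439036_a_at they were 2082 and 2134 in KO and 2113 and 2206 in WT (-0.034 ± 0.098). At 1418453_a_at they were 1149 and 998.4 in KO and 1151 and 1148 in WT (-0.10 ± 0.11). The adjusted p ranged from 0.653 to 0.907 in limma, and the 95% intervals of the 4 probe sets together run from 0.785-fold to 1.23-fold, so a larger change than that lies outside the interval of every one of them. The fifth, 1455949_at, gave signals of 81.3 and 81.8 in KO and 98.0 and 144.0 in WT, was Present on WT replicate 2 alone, and was not tested. Fitted with no detection filter, it differed by -0.54 ± 0.24 (adjusted p = 0.535 in limma).

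Atp1b2, first known as an adhesion molecule of glia and the usual partner of the pump there, was not reliably detected in either group. Probe set 1435148_at gave signals of 248.5 and 210.4 in KO and 190.1 and 187.4 in WT, all called Absent. Probe set 1422009_at gave signals of 70.7 and 74.3 in KO and 100.2 and 62.2 in WT, with 1 Present call, on WT replicate 1. Both were left out by the detection filter. Fitted without that filter, their log2 differences were 0.28 ± 0.15 and -0.12 ± 0.29 (adjusted p = 0.599 and 0.921 in limma). Of the 8 nerve and glia markers on the array, 3 were tested in limma, 0 passed and 1 had an unadjusted p under 0.05, where 15.5% of all probe sets tested had one. The 3 were Sox10, a transcription factor of glia and neural crest (-0.51 ± 0.18, adjusted p = 0.205), S100b (-0.31 ± 0.39) and Stmn2 (0.32 ± 0.36).

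Atp1b3, a widely expressed beta subunit, was Present on all 4 arrays at its single probe set, with both KO signals above both WT signals. At 1423126_at the signals were 766.2 and 966.8 in KO, against 639.9 and 693.7 in WT. The log2 difference of 0.37 ± 0.13, or 1.29-fold (95% interval 1.06 to 1.58), did not pass (adjusted p = 0.217 in limma). The KO arrays themselves were 0.34 apart on the log2 scale, nearly as far as the group means. Without KO replicate 1 the difference was 0.54, with an adjusted p of 0.0419 in limma, and without KO replicate 2 it was 0.20. In both settings KO is a single array, assumed to vary like the WT pair.

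Fxyd1, phospholemman, is the small protein through which adrenergic signalling releases the pump of heart and skeletal muscle from inhibition. At 1421374_a_at its signals were 3027 and 2504 in KO, against 3431 and 3249 in WT, so both KO arrays lay below both WT arrays. The log2 difference of -0.28 ± 0.11, or 0.825-fold (95% interval 0.703 to 0.968), did not pass (adjusted p = 0.240 in limma). Without KO replicate 1 it was -0.42, with an adjusted p of 0.0389 in limma, and without KO replicate 2 it was -0.14, again with a single KO array and the spread of the WT pair. Skeletal muscle makes Fxyd1 too, and the part of the lower skeletal muscle markers in this difference was not tested.

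Slc8a1, the sodium-calcium exchanger NCX1 of the cardiomyocyte membrane, was read by 4 probe sets whose log2 signals did not all move one way. The brightest, 1437675_at, gave signals of 520.7 and 611.3 in KO, against 809.8 and 685.5 in WT. The groups did not overlap, and the log2 difference of -0.40 ± 0.14, or 0.757-fold (95% interval 0.618 to 0.928), did not pass (adjusted p = 0.186 in limma). Probe set 1425817_a_at gave signals of 225.0 and 238.2 in KO and 227.6 and 177.4 in WT, a difference of 0.20 ± 0.17 (adjusted p = 0.607 in limma) that turned to -0.20 in the authors' deposited signal log ratio. The dim 1440201_at gave signals of 40.0 and 74.8 in KO and 61.3 and 55.7 in WT, with the KO arrays on either side of WT (-0.095 ± 0.32, adjusted p = 0.919 in limma). The fourth, 1420210_at, gave signals of 97.2 and 75.0 in KO and 102.0 and 129.9 in WT, was Present on 1 array of each group, and was not tested. Fitted with no detection filter, it differed by -0.43 ± 0.24 (adjusted p = 0.602 in limma). In the deposited signal log ratio, the differences at 1437675_at and 1440201_at were both -0.15, and neither passed. The place of each probe set in the transcript was not analysed here.

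**Figure D3:**
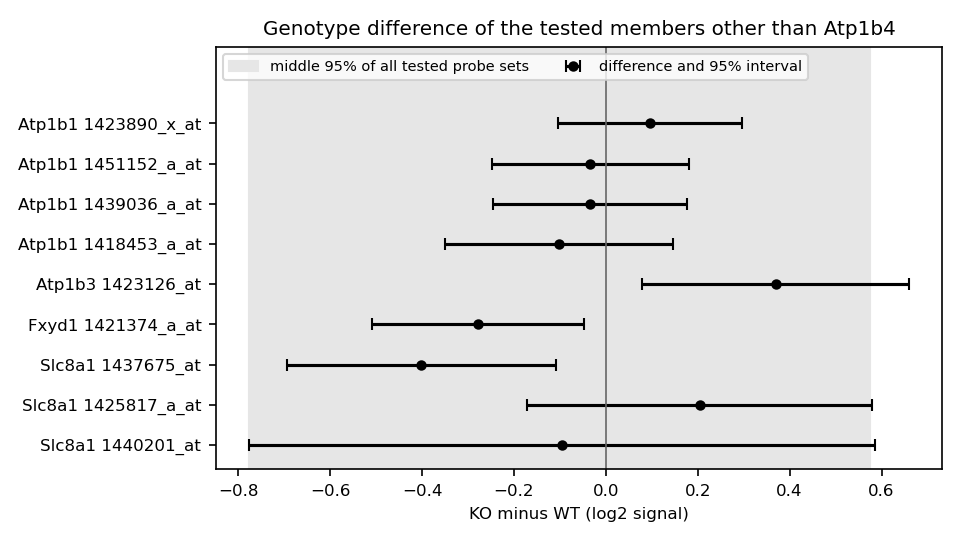
Log2 difference, KO minus WT, with its 95% interval from limma for the 9 tested probe sets other than that of Atp1b4, over a grey band that spans the middle 95% of all 19065 tested probe sets (-0.78 to 0.58). The intervals of Atp1b3 at 1423126_at, Fxyd1 at 1421374_a_at and Slc8a1 at 1437675_at leave out 0 before adjustment, and all 9 differences lie inside the band.

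The members other than Atp1b4 can be set beside the whole array. Of their 9 tested probe sets, which stand for 4 genes, 0 passed the adjusted threshold in limma, where 1.34% of all probe sets tested did (0.383% higher and 0.96% lower), and 3 had an unadjusted p under 0.05 (1 higher, 2 lower), where 15.5% of all did. The groups did not overlap at 4 of the 9, where they did not overlap at 47.6% of all. Their median log2 difference was -0.034, against 0.014 over all tested. Without KO replicate 1, the array on which Atp1b3 and Fxyd1 lay closer to WT, 2 of the 9 passed, where 3.41% of all did, and without KO replicate 2, 0 of the 9 passed, where 1.22% of all did. The genotype contrast is the one in which Atp1b4 was picked, so these counts describe the members and support nothing about them.

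**Figure D4:**
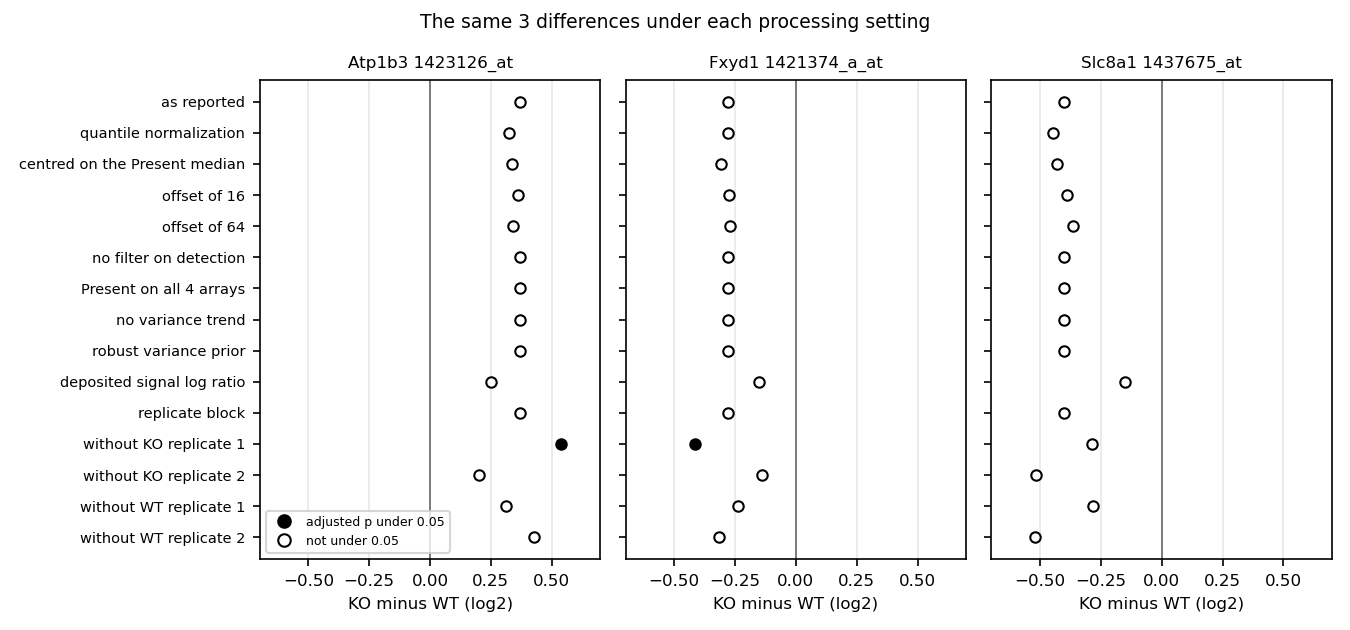
Log2 difference, KO minus WT, of Atp1b3 at 1423126_at, Fxyd1 at 1421374_a_at and Slc8a1 at 1437675_at as reported and under 14 alternatives, filled where the adjusted p was under 0.05. Each keeps its sign throughout, and Atp1b3 (0.54) and Fxyd1 (-0.42) pass in the setting without KO replicate 1, where KO is a single array, and in no other.

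Among the other genes of the pump, of sodium exchange and of their anchoring that could be tested, none differed past the threshold. Of 51 listed genes, 10 were not analysed here and 41 were named by a probe set. Of these, 19 were tested at their brightest tested probe set. Of the 19, 0 passed in limma, where 1.31% of the 10184 genes so tested were called. An unadjusted p under 0.05 was reached by 2, where 15.5% of all probe sets tested had one. The difference was positive for 10 and negative for 9 (median 0.010, against 0.035 over all genes so tested). Among other pump partners, 3 of 13 were tested, with 0 at an unadjusted p under 0.05. The FXYD protein genes Fxyd5 (-0.14 ± 0.17) and Fxyd6 (0.14 ± 0.23) had the smallest p (adjusted p = 0.731 and 0.810 in limma). Among exchangers and cotransporters, 5 of 17 were tested. Slc8b1, the mitochondrial sodium-calcium exchanger, gave signals of 61.3 and 60.0 in KO, against 94.1 and 83.0 in WT, and did not pass (-0.54 ± 0.24, adjusted p = 0.296 in limma). Slc9a3, a sodium-proton exchanger, gave signals of 64.2 and 51.7 in KO and 45.8 and 34.5 in WT (0.54 ± 0.30, adjusted p = 0.409 in limma).

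The anchors and regulators were all detected. All 11 were tested in limma and 0 passed, where 1.31% of all genes were called at their brightest tested probe set. An unadjusted p under 0.05 was reached by 1, where 15.5% of all probe sets tested had one. Prkaca, the catalytic subunit of protein kinase A, which phosphorylates phospholemman, gave signals of 1873 and 1652 in KO, against 2240 and 2117 in WT (-0.31 ± 0.11, adjusted p = 0.189 in limma). Ank2, the ankyrin that holds pump and exchanger together at the membrane of the heart cell, gave signals of 498.4 and 431.2 in KO, against 573.3 and 543.3 in WT (-0.27 ± 0.13, adjusted p = 0.360 in limma). Neither gene's groups overlapped, as was so at 47.6% of all probe sets tested. Snw1, the nuclear partner of the Atp1b4 protein, named here after its values were seen, gave signals of 653.5 and 558.0 in KO and 493.8 and 627.8 in WT, which overlap (0.12 ± 0.15, adjusted p = 0.743 in limma).

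**Figure D5:**
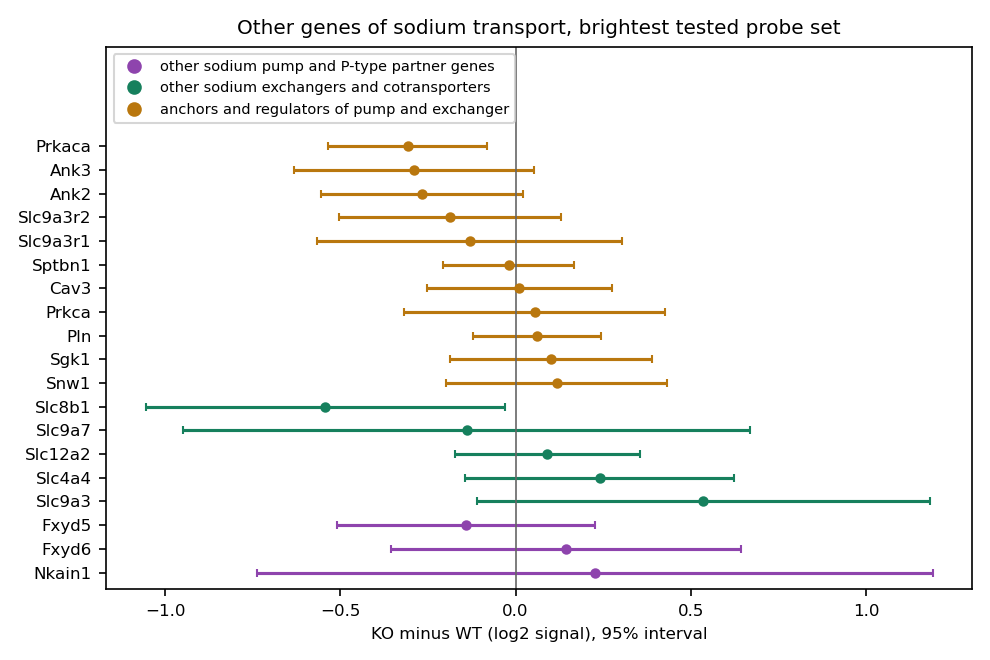
Log2 difference, KO minus WT, with its 95% interval from limma for the 19 tested genes of the 3 sodium transport lists, at the brightest tested probe set of each. The intervals of Prkaca and Slc8b1 lie below 0 before adjustment, and those of the other genes span it.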

How the data were processed

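Per the submitters' processing notes, the authors made the deposited signal of each probe set, an intensity on a linear scale, with MAS5 (version not given in the sources used here). Per the file headers, they also deposited a signal log ratio (log2, against an unnamed baseline array) and, for detection, a p-value and its call (Present, Marginal or Absent). The arrays already shared a 2% trimmed mean of 150, so scaling changed nothing.

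Of 45101 probe sets, 64 controls were left out. The platform annotation gave 34945 probe sets 1 gene, and 34741 of these were found in the RefSeq table. Log2 signals (4 signals of 0 were raised to 0.1, a step added after they were seen) were fitted for the 19065 probe sets that KO or WT called Present on each of its arrays, with limma 3.58.1 in R 4.3.3, by genotype with a variance trend. Present calls covered 42.4% to 43.7% of probe sets per array. P-values are two-sided, adjusted by Benjamini-Hochberg over all tested, and the fit was tested on simulated data. Values after ± are standard errors from limma, which draw on the spread of all fitted probe sets and not on that between the pools alone. The number of arrays limits the precision. Members and lists were chosen with earlier results of these data known. From each transport list, the genes past the threshold were to be named, otherwise the 2 with the smallest p, plus Ank2. Alternatives were normalization, offset, filter, variance model, measure, pairing and arrays left out.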

Additional observations from a re-analysis of the deposited data

How the results depend on the processing

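Of 125 alternative values of the 9 member probe sets other than Atp1b4, 119 kept their sign or stood at 0 and did not pass, 4 turned sign and 2 passed. The sign turned at Slc8a1 1440201_at with quantile normalization (0.033) and without KO replicate 1 (0.36, within -0.55 to 0.36 with 1 array left out), at Slc8a1 1425817_a_at in the signal log ratio (-0.20), and at Atp1b1 1451152_a_at without WT replicate 2 (0.020, within -0.087 to 0.020). The cause was not tested. Leaving out 1 array gave 0 to 2 member calls, against 0 with all arrays, and no transport list gene was called in any of the 14 alternatives. The Atp1b4 log2 difference, -5.54 as measured with both KO signals Absent, was -4.16 with an offset of 16 and -2.82 with an offset of 64, which by construction shrink differences of dim signals, and -6.45 to -4.63 with 1 array left out. It had no value where probe sets had to be Present on all 4 arrays. Calls on the whole array numbered 256, against 37 with no filter on detection (more probe sets tested), 23 with no variance trend, 0 with the deposited signal log ratio, and 163 to 650 with 1 array left out. The replicate block raised them to 721, with 0 calls among the 9 member probe sets other than Atp1b4, which was left out of the count. Deviations of same-numbered arrays correlated at -0.011 over the 19065 probe sets, and with 2 arrays per group and no statement of pairing the numbers were not taken to pair the samples. Detection calls limit Atp1b2, Atp1b1 at 1455949_at and Slc8a1 at 1440201_at and 1420210_at.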
